A study of Mus musculus with 9 samples.

Results

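The lipid droplet genes examined here encode proteins that coat the droplets in which cells store fat, or that help those droplets form and merge. They are 10 genes, chosen by symbol: the perilipins Plin2, Plin3, Plin4 and Plin5, the CIDE genes Cidec and Cideb, the fat storage-inducing genes Fitm1 and Fitm2, the seipin gene Bscl2, and Hilpda. The array annotation gave them 14 probes, out of 45281 probes and 19057 named genes on the array. The study compared epididymal fat, the fat pad beside the epididymis, of 5 mice carrying a transgene for Tm5NM1, a cytoskeletal tropomyosin (labelled tg/tg), and 4 wild-type mice (labelled wt/wt). All 9 mice were FVB/N, 3 months old and fasted for 14 to 16 h, and each gave 1 Illumina bead array. No label or file read for this report says which promoter drives the transgene, or in which cells it is active.

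A lipid droplet is a core of triglyceride and sterol ester under a single layer of phospholipid, made at the endoplasmic reticulum. Seipin and the FITM proteins act there while the droplet forms and takes up lipid, perilipins then cover its surface and control how far lipases reach the fat, and CIDE proteins pass lipid between droplets that touch, so that large droplets grow. White adipocytes hold a single large droplet and depend on Cidec and on perilipins for it, while Plin2 and Plin3 are made in most cells. Hilpda, induced by low oxygen and by fatty acids, inhibits the triglyceride lipase encoded by Pnpla2.

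The tissue label was borne out by fat cell genes. Of 12 adipocyte markers 10 were measured, and Adipoq, Lep and Pparg were each detected on all 9 arrays. Epididymal genes were present too, and their mean log2 level ran from 5.93 to 10.28 in transgenic and from 10.40 to 12.83 in wild-type mice, so that the groups did not overlap. The median signal of the arrays before normalization was 142 to 147 in wild-type mice 142, 143 and 159, and 169 to 192 for the 5 transgenic mice and wild-type mouse 141. In whole fat, fewer cells of a type and less RNA per cell cannot be told apart. Levels below are normalized signals on the log2 scale, differences are transgenic minus wild type, and a probe was tested where 4 or more arrays had a detection p below 0.05 for it.

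None of the lipid droplet genes differed between transgenic and wild-type fat by the test over all probes. Of the 14 probes 13 were detected on all 9 arrays and tested, and 0 of them passed (limma, adjusted p between 0.557 and 0.980), against 0.0685% of all probes tested. At an unadjusted p under 0.05 the count was again 0, against 9.45% of all probes (6.05% higher and 3.4% lower in transgenic mice). The groups overlapped at every one of the 13, whereas they did not overlap at 3.21% of all probes, with transgenic mice higher at 2.04% and lower at 1.16%. All 13 differences lay below 0, against 42.5% of those over all probes, the other 57.5% lying above. Over the 9 tested genes, each taken at its brightest probe, the median difference was -0.12, against 0.04 over the 12171 genes tested.

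That shared sign did not hold without 2 of the mice, with no normalization between arrays or with the array signal as a covariate. Fewer than 13 probes also lay below 0 with array weights (9) and with the epididymal (12) or adipocyte level (11) as a covariate. The same was so without mouse 152 (10), 159 (11), 165 (11) or 147 (12) alone. The shared sign did hold under scaling to the 75th percentile, where all 13 differences lay below 0 and the median over the genes was -0.25. Transgenic mouse 152 gave the lowest value of the 9 mice at 9 of the 13 probes, and wild-type mouse 159 the highest at 8 of them. These mice also had the lowest array weights, 0.37 and 0.35. Without both, an alternative chosen after seeing the data, 8 of 13 differences lay below 0 and the median over the genes was 0.03. With no normalization between arrays 4 of 13 lay below 0, against 7.79% of all probes. The median of the genes was 0.18, in a fit whose median difference over all probes was 0.43. Relative to the median over all probes, the median of the genes was -0.26 both in this fit and under scaling to the 75th percentile. With the median array signal as a covariate 3 of 13 lay below 0, against 42.8% of all probes, with a median of 0.11. That signal was 142 to 147 in wild-type mice 142, 143 and 159, and 169 to 192 in mouse 141 and the transgenic mice. The signal and genotype can therefore hardly be told apart in this fit.

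**Figure D1:**
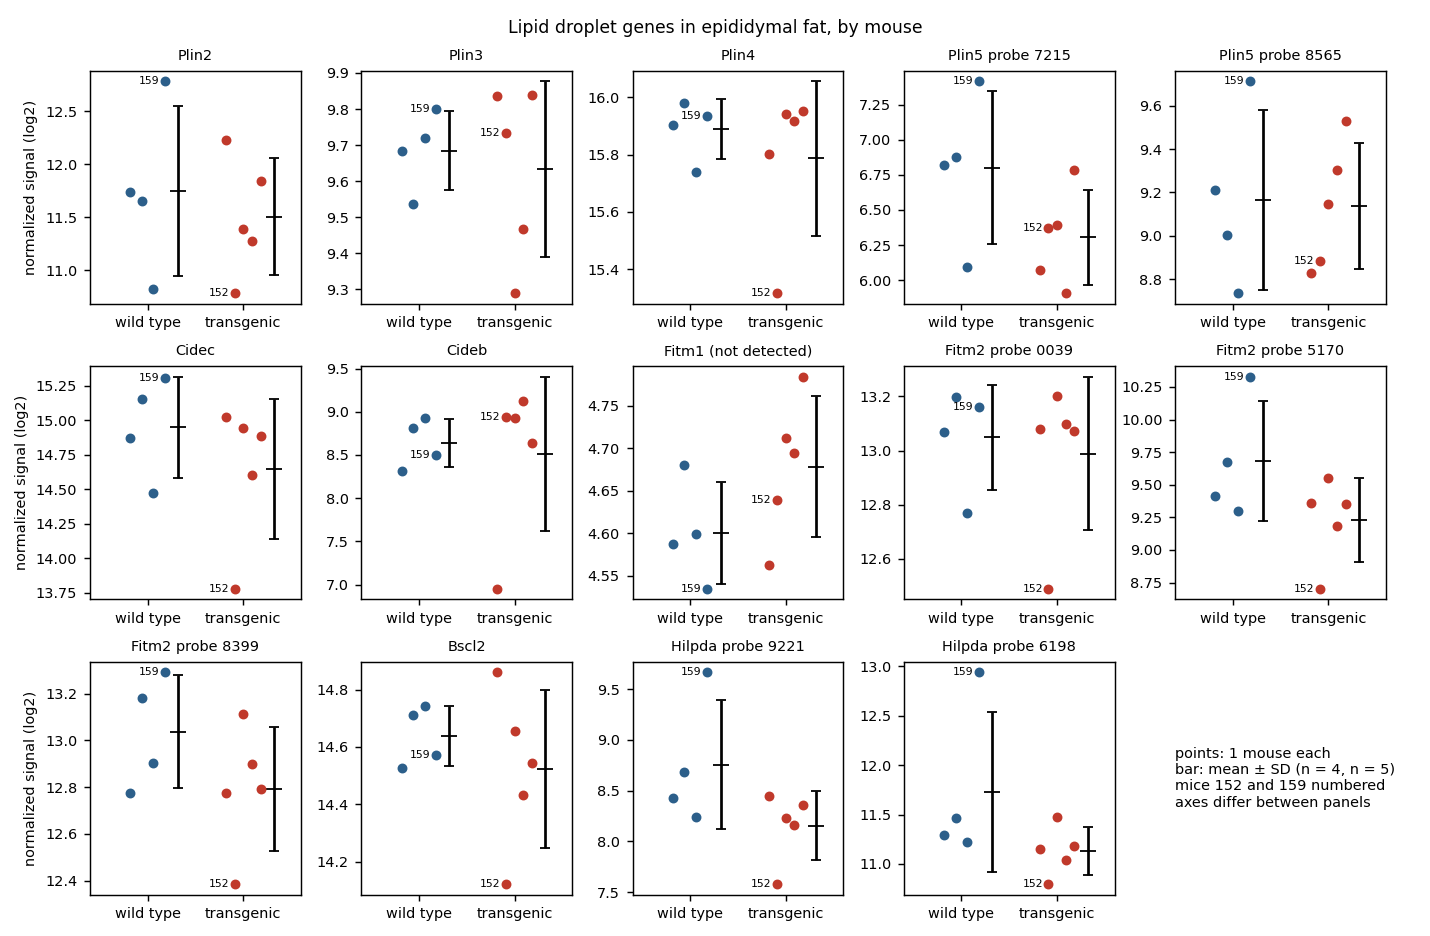
Normalized log2 signal (y axis) of each of the 14 probes in wild-type (blue) and transgenic (red) mice, 1 point per mouse, with the mean and SD as bars and mice 152 and 159 numbered; where a gene has several probes, each is labelled by the last 4 digits of its ID. The groups overlap in every panel, mouse 152 is the lowest point in 9 of the 13 panels of tested probes and mouse 159 the highest in 8.

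Promoter sequences are shown for Plin4, Cidec and Fitm2, the members of the 3 pairs with the highest Pearson's r over all 9 mice. The highest rank correlation was that of Plin2 with Cidec (rho = 0.82), and Plin4 with Cidec was at r = 0.11 without mice 152 and 143, as described further on. Each is the 250 bases before the outermost RefSeq start of the gene (GRCm38.p6), read 5′ to 3′ on the strand of the gene. Capitals mark the CCAAT box (CCAAT) and the GC box (GGGCGG), searched on both strands.
Plin4, chr17:56109783-56110032, minus strand: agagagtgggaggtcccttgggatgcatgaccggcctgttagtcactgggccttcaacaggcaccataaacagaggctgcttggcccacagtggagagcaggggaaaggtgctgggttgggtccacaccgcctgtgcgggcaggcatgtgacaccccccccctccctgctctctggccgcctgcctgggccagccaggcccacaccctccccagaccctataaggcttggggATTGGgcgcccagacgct
Cidec, chr6:113435761-113436010, minus strand: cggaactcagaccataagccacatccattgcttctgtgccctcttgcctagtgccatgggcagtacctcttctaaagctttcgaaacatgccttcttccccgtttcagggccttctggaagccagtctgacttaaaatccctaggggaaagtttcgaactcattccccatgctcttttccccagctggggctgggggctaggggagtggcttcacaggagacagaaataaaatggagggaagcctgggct
Fitm2, chr2:163472630-163472879, minus strand: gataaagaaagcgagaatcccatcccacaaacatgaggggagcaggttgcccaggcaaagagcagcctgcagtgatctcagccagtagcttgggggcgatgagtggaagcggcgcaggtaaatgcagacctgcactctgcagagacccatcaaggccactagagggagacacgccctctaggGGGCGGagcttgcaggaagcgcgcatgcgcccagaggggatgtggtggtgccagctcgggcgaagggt
Plin4 held 1 CCAAT box, 18 bases before the start and on the other strand, and Fitm2 held 1 GC box, 68 bases before it. Cidec held neither in this window. Of all 32851 windows of 250 bases in the RefSeq table, which include those of further starts of a gene, 33.8% held a CCAAT box and 32.7% a GC box.

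Plin4 coats small droplets in white adipocytes. It read 15.80, 15.32, 15.94, 15.92 and 15.95 in transgenic mice 165, 152, 147, 163 and 164, the order used for transgenic values from here on. In wild-type mice 141, 142, 143 and 159, likewise the order used below, it read 15.90, 15.98, 15.74 and 15.94. All mice except transgenic mouse 152 lay within a narrow band, and the groups overlapped. The means were 15.79 ± 0.27 (SD, n = 5) and 15.89 ± 0.11 (SD, n = 4), a difference of -0.10 with a 95% confidence interval of -0.46 to 0.25 (limma adjusted p = 0.872). Before normalization the Plin4 signal was 72.1% to 96.8% of the brightest probe of its array, with 3 to 120 probes brighter. Whether differences were compressed so near the top of the range was not tested.

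Plin2, the perilipin of most cells and of droplets that are filling, varied more. It read 12.23, 10.78, 11.39, 11.28 and 11.85 in transgenic mice and 11.74, 11.65, 10.83 and 12.78 in wild-type mice. The highest and the second lowest value were both from wild-type mice, 159 and 143. The difference of -0.25 (95% confidence interval -1.11 to 0.62, limma adjusted p = 0.878) was smaller than the spread, which was 0.55 (SD, n = 5) in transgenic and 0.80 (SD, n = 4) in wild-type mice. Without wild-type mouse 159 it was 0.10 (limma adjusted p = 0.955).

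Plin3, found in the cytosol and on young droplets, was nearly level. Transgenic mice read 9.84, 9.73, 9.29, 9.47 and 9.84 and wild-type mice 9.68, 9.54, 9.72 and 9.80, so that the wild-type range lay inside the transgenic range. The difference was -0.05, and its interval of -0.39 to 0.29 was the narrowest among these probes (limma adjusted p = 0.938).

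Plin5, which ties droplets to mitochondria in tissues that burn fat, had 2 tested probes. At the brighter, ILMN_3158565, transgenic mice read 8.83, 8.88, 9.14, 9.30 and 9.53 and wild-type mice 9.21, 9.002, 8.74 and 9.71, with the wild-type mice at both ends. The difference there was -0.03 (95% confidence interval -0.52 to 0.46, limma adjusted p = 0.980). At the dimmer, ILMN_2607215, the values were 6.07, 6.37, 6.39, 5.91 and 6.79 against 6.82, 6.87, 6.09 and 7.42. Here 3 of the 4 wild-type mice lay above all transgenic mice and mouse 143 among them, with a difference of -0.49 (95% confidence interval -1.09 to 0.10, limma adjusted p = 0.593). Without wild-type mouse 159 this difference was -0.29 (limma adjusted p = 0.780), and with no background correction it was -0.23 (limma adjusted p = 0.619). The signal of this probe before normalization was only 158 to 243, with array medians of 142 to 192, and the groups intermixed there. The 2 probes correlated with r = 0.66 over the 9 arrays. Plin4 and Plin5 are neighbours on chromosome 17 with no other annotated gene start between them, and 9 gene starts separate Plin5 from Plin3 (GRCm38.p6). Their differences of -0.10, -0.03 and -0.05 at the brightest probes were all within their intervals of 0.

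Cidec drives the growth of the single large droplet of white adipocytes. It read 15.02, 13.78, 14.94, 14.60 and 14.88 in transgenic mice and 14.87, 15.15, 14.47 and 15.30 in wild-type mice. Mouse 152 stood lowest by a wide margin, and the other transgenic mice lay within the wild-type range. The means were 14.65 ± 0.51 (SD, n = 5) and 14.95 ± 0.37 (SD, n = 4), a difference of -0.30 (95% confidence interval -0.91 to 0.31, limma adjusted p = 0.766). Without mouse 152 the difference was -0.09 (limma adjusted p = 0.868).

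Cideb, best known from liver, where it takes part in loading lipoproteins, was detected on all 9 arrays. Transgenic mice read 6.95, 8.94, 8.92, 9.12 and 8.63 and wild-type mice 8.31, 8.81, 8.93 and 8.50. Transgenic mouse 165 stood alone at the low end, and the remaining values of both groups intermixed. The difference of -0.12 (95% confidence interval -1.02 to 0.78, limma adjusted p = 0.947) turned to 0.27 without that mouse (limma adjusted p = 0.639).

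The FITM proteins sit in the endoplasmic reticulum and are needed for droplets to bud from it. Fitm1, known from skeletal muscle and heart, was below background on all 9 arrays, with detection p from 0.552 to 0.978, and was not tested. Among 12 skeletal muscle markers 5 were measured. Acta1, Tnni2, Actn3 and Mylpf were detected on all 9 arrays and Mb on 8, whereas the muscle creatine kinase Ckm and the myosin Myh4 were detected on none.

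Fitm2, the widely made form and the one of fat cells, had 3 tested probes. The brightest, ILMN_2470039, read 13.08, 12.49, 13.20, 13.10 and 13.07 in transgenic mice and 13.07, 13.20, 12.77 and 13.16 in wild-type mice, again with mouse 152 lowest and the rest together. Its difference was -0.06 (95% confidence interval -0.45 to 0.33, limma adjusted p = 0.938). ILMN_2858399 read 12.77, 12.39, 13.11, 12.90 and 12.79 against 12.78, 13.18, 12.90 and 13.29, a difference of -0.24 (interval -0.64 to 0.15, limma adjusted p = 0.694). The dimmest, ILMN_2715170, read 9.36, 8.70, 9.55, 9.18 and 9.35 against 9.41, 9.68, 9.30 and 10.33. Its difference of -0.45 (interval -0.98 to 0.09, limma adjusted p = 0.592) was the largest of the 3, and mice 152 and 159 lay at its 2 ends. Without mouse 159 it was -0.23 (limma adjusted p = 0.783), and for ILMN_2858399 the difference was -0.14 without mouse 152 (limma adjusted p = 0.706). The probes correlated with r from 0.71 to 0.90 over the 9 arrays, and no source read here says which transcripts each one detects.

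Bscl2 encodes seipin, which holds the site where a droplet grows from the endoplasmic reticulum and whose loss causes lipodystrophy. Transgenic mice read 14.86, 14.12, 14.66, 14.43 and 14.55 and wild-type mice 14.53, 14.71, 14.74 and 14.57. The wild-type values lay within the transgenic range, whose 2 ends were mice 152 and 165. The difference was -0.12 (95% confidence interval -0.47 to 0.24, limma adjusted p = 0.858). Without mouse 152 it was -0.0147 and without mouse 165 it was -0.19 (limma adjusted p = 0.972 and 0.691).

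Hilpda gave the lowest differences of the 13 probes, and they were smaller without wild-type mouse 159. At the brighter probe, ILMN_2926198, transgenic mice read 11.15, 10.80, 11.47, 11.04 and 11.18 and wild-type mice 11.29, 11.47, 11.22 and 12.94. Apart from mouse 159 the wild-type mice lay among or close to the transgenic mice. The means were 11.13 ± 0.24 (SD, n = 5) and 11.73 ± 0.81 (SD, n = 4), a transgenic to wild-type ratio of 0.660 with a 95% confidence interval of 0.395 to 1.10 (limma adjusted p = 0.606). The dimmer probe, ILMN_1239221, read 8.44, 7.58, 8.23, 8.16 and 8.36 against 8.43, 8.69, 8.24 and 9.67, with mice 152 and 159 at the ends. Its ratio was 0.659 (95% confidence interval 0.420 to 1.04, limma adjusted p = 0.557), and the 2 probes correlated with r = 0.94 over the 9 arrays. Without mouse 159 the log2 differences shrank from -0.60 at both probes to -0.20 and -0.30 (limma adjusted p = 0.778 and 0.731).

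**Figure D2:**
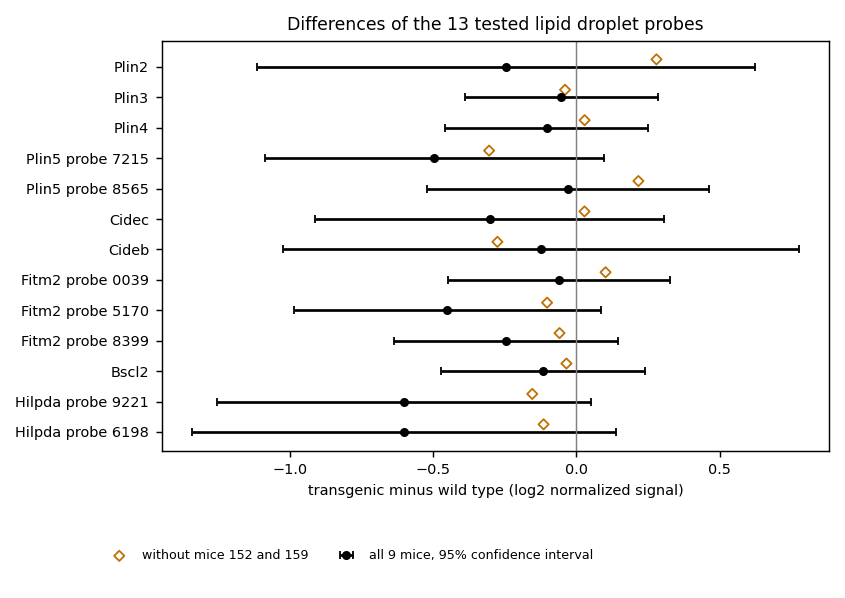
Difference of each of the 13 tested probes (x axis, transgenic minus wild type on the log2 scale) over all 9 mice, as a point with its 95% confidence interval, and without mice 152 and 159, as an open diamond. Every interval includes 0, and the 2 Hilpda differences move from -0.60 to -0.15 and -0.11 without these mice.

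The intervals give the differences that these arrays do not exclude. For Plin3, Plin4, Bscl2 and the brightest Fitm2 probe they ended at -0.39, -0.46, -0.47 and -0.45 below 0 and at 0.29, 0.25, 0.24 and 0.33 above it. The Plin4 interval is for a signal near the top of the range, where compression was not tested. For Plin2, Cideb and the brighter Hilpda probe the intervals reached down to -1.11, -1.02 and -1.34, so that differences down to these values are not excluded. At the dimmer Plin5 probe, Fitm2 probe ILMN_2715170 and the dimmer Hilpda probe they ran from -1.09 to 0.10, -0.98 to 0.09 and -1.25 to 0.05. The number of arrays limits this precision.

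**Figure D3:**
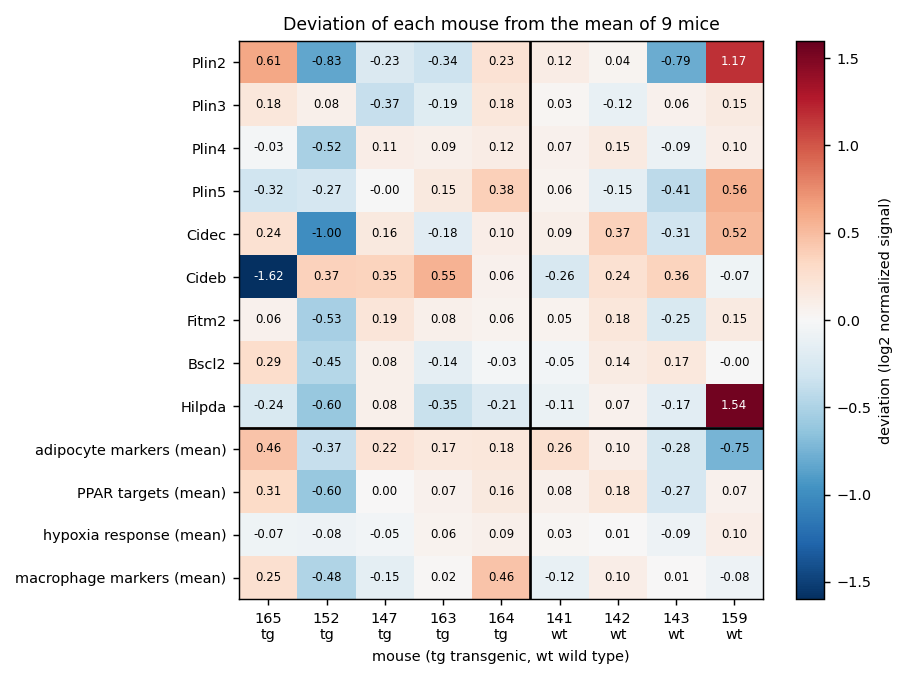
Deviation of each mouse (columns) from the mean of the 9 mice on the log2 scale, for the 9 tested lipid droplet genes at their brightest probe and, under the line, for the mean of 4 gene lists. In mouse 159 Hilpda lies 1.54 and Plin2 1.17 above the mean while the adipocyte markers lie 0.75 below it, and in mouse 152 Plin2 lies 0.83 below it.

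Mice 152 and 159 departed in different ways. In transgenic mouse 152, Cidec lay 0.9997, Plin2 0.83, Hilpda 0.60, Fitm2 0.53, Plin4 0.52 and Bscl2 0.45 below the mean of the 9 mice, whereas Cideb and Plin3 lay 0.37 and 0.08 above it. The adipocyte markers of that mouse were on average 0.37 below the mean, the PPAR target genes 0.60 and the macrophage markers 0.48. Its epididymal level was the highest of the transgenic mice at 10.28. In wild-type mouse 159 the adipocyte markers averaged 0.75 below the mean, the lowest of the 9 mice, yet Hilpda, Plin2, Plin5 and Cidec stood 1.54, 1.17, 0.56 and 0.52 above it. The part of these other levels in the values of the lipid droplet genes was not tested for single mice.

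With the epididymal level as a covariate the median difference of the 9 genes was -0.57, and with the adipocyte level it was -0.19. No member probe passed in either fit, the lowest limma adjusted p being 0.220 and 0.639. Since the epididymal level did not overlap between the groups, that level and genotype can hardly be told apart in such a fit.

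Several members varied together from mouse to mouse. Of 36 pairs among the 9 tested genes 25 correlated positively, and 2 passed at an adjusted p under 0.05 by Pearson's r. Plin4 and Fitm2 correlated with r = 0.95 (exact permutation p = 0.000852, adjusted 0.0301; two-sided) and rho = 0.77 (exact permutation p = 0.0214, adjusted 0.193). Cidec and Fitm2 gave r = 0.92 (exact permutation p = 0.00167, adjusted 0.0301) and the same rho of 0.77 (p = 0.0214, adjusted 0.193, exact permutation). None of the 36 pairs passed by rho. The share of such pairs over all genes was not computed. Outside the members, r was above 0.9 for 74 genes with Fitm2, 68 with Cidec and 32 with Plin4. Values this high are therefore not particular to pairs of members.

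Both relations were lower without mouse 152. Without the 2 mice farthest from the median of Plin4, 152 and 143, the first r was 0.56, and without 152 and 159, the farthest for Cidec, the second was 0.78. Without mouse 152 alone they were 0.84 and 0.75. Within genotypes r was 0.96 and 0.94. Among the 6 arrays of higher median signal, where mouse 141 was the only wild-type mouse, r was 0.97 and 0.94. Mouse 152 was kept in both, so these values do not show the relations without it. The other 3 arrays are too few for a value. Plin4 with Cidec gave r = 0.88 over all mice (exact permutation p = 0.00806, adjusted 0.0726) and rho = 0.67 (exact permutation p = 0.0589, adjusted 0.342), and 0.11 without mice 152 and 143. Plin2 with Cidec gave r = 0.82 (exact permutation p = 0.00601, adjusted 0.0722) and rho = 0.82 (exact permutation p = 0.0108, adjusted 0.193), and 0.76 without mice 152 and 159. Plin2 with Hilpda gave r = 0.74 (exact permutation p = 0.0194, adjusted 0.140) and rho = 0.47 (exact permutation p = 0.213, adjusted 0.474), and -0.05 without them.

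Endothelial and macrophage markers moved with some of the same members over all mice, though none of 45 relations between the 9 genes and 5 marker lists passed (exact permutation, lowest adjusted p = 0.360 by r and 0.973 by rho). With the adipocyte level r ran from -0.58 (Hilpda) to 0.39 (Fitm2). With the mesothelial level it ran from -0.49 (Plin5) to 0.44 (Bscl2), and with the epididymal level from -0.31 (Fitm2) to 0.35 (Hilpda). Fitm2 and the mean level of the endothelial markers gave r = 0.80 (exact permutation p = 0.00799) and rho = 0.70 (exact permutation p = 0.0433), and r = 0.07 without mice 152 and 143. For Plin4 and Cidec the r with that level was 0.71 and 0.60 (exact permutation p = 0.0160 and 0.0779), with rho of 0.52 and 0.37 (exact permutation p = 0.162 and 0.336), and without those mice r was -0.14 and -0.44. With the macrophage level Plin4, Bscl2, Cidec and Fitm2 gave r of 0.62, 0.62, 0.56 and 0.53 (exact permutation p = 0.113, 0.0782, 0.125 and 0.167) and rho of 0.42, 0.43, 0.35 and 0.15 (exact permutation p = 0.270, 0.250, 0.359 and 0.708). Without mice 152 and 164, the farthest for that level, these r were -0.37, 0.63, 0.05 and -0.11. Mouse 152 had the lowest endothelial and macrophage levels of the 9 mice, 11.51 and 9.92. The part of these levels in the correlations between members was not tested.

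**Figure D4:**
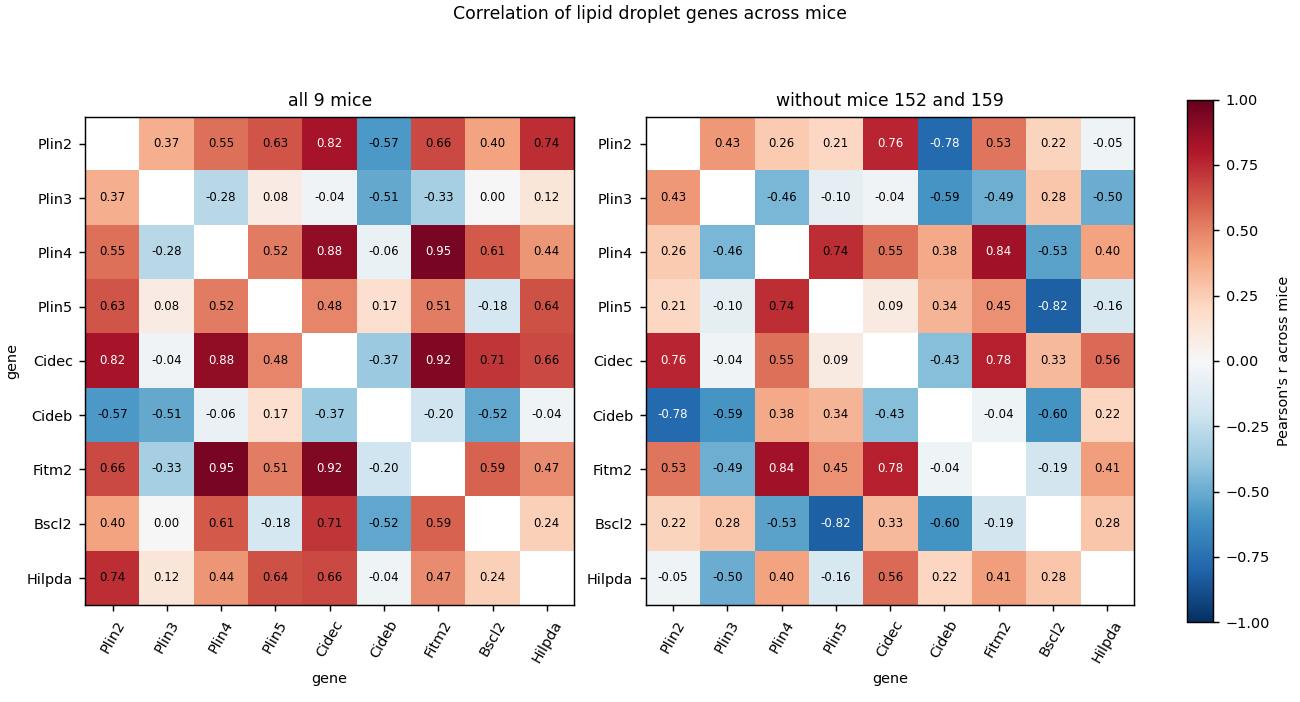
Pearson's r across mice for each pair of the 9 tested lipid droplet genes, over all 9 mice (left) and without mice 152 and 159 (right), with red for positive and blue for negative values. Plin4 with Fitm2 is at 0.95 and 0.84, and Plin2 with Hilpda goes from 0.74 to -0.05.

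For each member the genes with the most similar values over the 9 arrays were looked up, as a description only, because among 12171 genes and 9 arrays high correlations are common. Cidec was most like Trf (r = 0.96), the transferrin gene, Lpin1 (0.96), a phosphatidate phosphatase of triglyceride synthesis, and Magee1 (0.95). Bscl2 was most like Apmap (0.97), an adipocyte membrane protein gene, Oplah (0.97) and Gm5460 (0.97). Plin4 was nearest to Pcolce2 (0.96), Itm2b (0.96) and Ctdspl (0.95), and Fitm2 to Socs5 (0.97), Lims2 (0.97) and Fbxo27 (0.97). Hilpda was nearest to Slc25a25 (0.98), a mitochondrial carrier, Nectin2 (0.98) and Rin2 (0.98), and Plin2 to Hal (0.98), Dcun1d5 (0.98) and Tor1aip1 (0.96). The genes most like Plin5 were Trip12 (0.96), 4833420G17Rik (0.95) and Bmp2k (0.94), those most like Plin3 were Efnb3 (0.95), Exosc1 (0.90) and Dera (0.89), and those most like Cideb were Tmem25 (0.995), Armc3 (0.99) and Dao (0.99). The number of genes with r above 0.9 ran from 1 for Plin3 to 201 for Cideb. Cideb read 6.95 in mouse 165 and 8.31 to 9.12 in the other mice. The brighter Hilpda probe read 12.94 in mouse 159 and at most 11.47 in the others. The part of these single mice in the correlations with other genes was not tested.

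Other genes of droplet biology were read from lists, and none of their measured genes passed the test. Plin1, the main perilipin of adipocytes, differed by 0.11 (limma adjusted p = 0.927) and Cidea, a further CIDE gene, also by 0.11 (limma adjusted p = 0.928), with groups that overlapped. Of 18 genes that make droplet lipids or shape new droplets 16 were measured, 9 with differences above 0 and 7 below, with a median of 0.01. Those with the lowest p were Pcyt1a (0.51), of phosphatidylcholine synthesis, the membrane tether gene Mospd2 (-0.48) and the acyl-CoA synthetase gene Acsl3 (-0.44), with limma adjusted p of 0.418, 0.466 and 0.513. Of 30 genes for other proteins found on droplets 27 were measured, 15 above and 12 below 0, with a median of 0.03. Clstn3, whose locus also encodes a droplet protein of adipocytes, differed by -1.41 (95% confidence interval -2.23 to -0.58, limma adjusted p = 0.337), with wild-type mice 143 and 159 at 9.56 and 10.12 and the other 7 mice between 7.34 and 8.50. The caveolar coat gene Cavin1 differed by 0.57 and the sterol enzyme gene Nsdhl by -0.80 (limma adjusted p = 0.530 and 0.597).

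Lipolysis genes showed no call either. Of 14 genes 11 were measured, 7 above 0 and 4 below, with a median of 0.12. The fatty acid carrier gene Fabp4 differed by 1.27 (95% confidence interval 0.44 to 2.10, limma adjusted p = 0.369), Pnpla3, a relative of the main lipase, by 0.92 (0.638) and Pnpla2, the lipase that Hilpda inhibits, by -0.32 (0.638). In mouse 159 Pnpla2 read 15.97, the highest of the 9 mice, and Pnpla3 9.97, the lowest. The adipocyte list gave a median of 0.13, with 8 of 10 measured genes above 0. Besides Fabp4 its lowest p belonged to Acvr1c (0.48), an activin receptor gene, and Lep (0.52), the leptin gene, with limma adjusted p of 0.569 and 0.672.

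Hypoxia response genes were read beside Hilpda, and PPAR target genes beside Plin2 and Plin5, which are themselves known targets. Of 20 hypoxia genes 18 were measured, 9 on each side of 0, with a median within 0.01 of 0 and no call. Egln3, an oxygen sensor gene, differed by -0.66 (limma adjusted p = 0.278), Ndrg1 by 0.58 (0.401) and the collagen hydroxylase gene P4ha2 by -0.70 (0.551). The mean of the list in mouse 159 was 10.14, against 9.95 to 10.12 in the others. Single genes of the list differed more. Mouse 159 was the highest of the 9 mice at Vegfa (14.91), Slc2a1 (11.62), Adm (9.10) and Mxi1 (8.83). It was the lowest at Egln1 (6.83), Ndrg1 (12.03) and Pgk1 (12.19). Of 20 PPAR targets 18 were measured, 9 on each side of 0, with a median within 0.01 of 0 and no call. Cpt1a, of fatty acid import into mitochondria, differed by 0.45 and Ehhadh, of peroxisomal fatty acid oxidation, by -0.94 (limma adjusted p = 0.525 and 0.581). Cpt1a was detected on at most 6 arrays and read only 4.91 to 5.99, near background. Ehhadh read 11.44 in mouse 159 and between 8.14 and 9.50 in the other mice. Pdk4 read 14.12 in mouse 159 and between 10.23 and 12.67 in the others. Mouse 159 was also highest at Cpt1b and Txnip, and it was lowest at Acadl, Acadm, Acaa2 and Etfdh.

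Marker lists of other cells were read as context. Brown adipocyte markers were measured at 5 of 9 genes, all above 0, with a median of 0.12 and no call; Ucp1 was detected on 1 array and Dio2, Elovl3 and Zic1 on none. Prdm16 differed by 0.37, Cox7a1 by 0.12 and Cox8b by 0.15 (limma adjusted p = 0.697, 0.884 and 0.919). Macrophage markers had a median of 0.04 over 11 of 14 genes, led by Cd14 (-0.69), Adgre1 (0.41) and C1qa (0.27), with limma adjusted p of 0.566, 0.674 and 0.723. Their mean level ran from 9.92 to 10.86 in transgenic and from 10.27 to 10.50 in wild-type mice.

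Endothelial markers lay above 0 at 11 of 11 measured genes of 12, with a median of 0.27 and mean levels of 11.51 to 12.49 against 11.64 to 12.14. Ramp2 (0.42), Tie1 (0.61) and Cldn5 (0.50) led them, with limma adjusted p of 0.458, 0.486 and 0.567. Mesothelial markers lay below 0 at 10 of 10 measured genes of 11, with a median of -0.82 and mean levels of 7.41 to 9.18 against 8.98 to 9.90. Upk1b (-2.46), Krt7 (-0.65) and Gpm6a (-0.81) led these, with limma adjusted p of 0.418, 0.546 and 0.610. Skeletal muscle markers had a median of -0.28 over their 5 measured genes, among them Acta1 (-0.65), Actn3 (-0.28) and Tnni2 (0.39), with limma adjusted p of 0.554, 0.609 and 0.692. Epididymis and testis markers lay below 0 at 15 of 15 measured genes of 18, with a median of -4.91. Of these 2 passed, against 13 of the 12171 genes tested. They were Lcn10 and Lcn9 (limma adjusted p = 0.0360 and 0.0376), next to Lcn8 (0.0595). Lcn9 was detected on 4 arrays and read 4.61 to 4.69 in transgenic and 8.23 to 12.14 in wild-type mice. It thus met the filter through the wild-type mice, and its call is no separate evidence. The part of these markers in the values of the lipid droplet genes was not tested beyond the fits with a covariate.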

How the data were processed

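RNA of 9 mice was measured on Illumina mouse bead arrays, 1 per mouse; per the labels' protocols it was extracted with Trizol, cleaned on RNeasy columns and labelled with an Ambion kit. No source read here names the scanner, image software or normalization. The deposited intensity values of the series matrix were used, with the detection p-value that the authors deposited for each probe and array. In the deposited table called non-normalized, intensities differ from the series matrix by factors of 0.800 to 0.950 on 8 arrays, and its detection p-values follow the series matrix instead, so that table was an alternative.

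Intensities were processed with neqc in limma 3.58.1 (R 4.3.3): background correction from the detection p-values, offset 16, quantiles, log2. A probe was tested where 4 or more arrays gave it a detection p below 0.05, which held for 23354 probes and not for 21927. Each was fitted with lmFit and eBayes, two-sided, adjusted by Benjamini-Hochberg over all kept probes, with a threshold of 0.05. A gene stands for its brightest kept probe. The fit was tested on simulated data. Correlations were tested by exact permutation over all 362880 orders of the 9 mice (SciPy 1.17.1), adjusted over 36 pairs of members and, separately, over 45 relations of members to marker levels, which were added after seeing the data.

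Probes were named from the platform annotation, with symbols updated through RefSeq (GRCm38.p6), which matched 34807 of 34885 probes with 1 symbol. Promoters are from the RefSeq table, which held all 10 members. Named were every member probe, the 3 genes of lowest p in each list and the 3 genes most like each member. Some further list genes are named for their detection or for their value in mouse 159. Mice are separate animals by their numbers, and no source read here gives cage, litter or slide. The members and lists were chosen with earlier results of these data known. 13 gene lists were read as counts and medians, with no test. Alternatives covered the source table, background, offset, scaling, filters, weights, prior, covariates and leaving out mice.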

Additional observations from a re-analysis of the deposited data

Results flagged for a closer look

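A sample far from the rest of its group was found in 4 of 26 groups of values, 2 for each of the 13 tested probes, by Dixon's criterion, which chance meets in about 1 of 20 groups. Plin4 read 15.32 in transgenic mouse 152, against 15.80 in the nearest mouse of its group. In the same mouse the brightest Fitm2 probe read 12.49, against 13.07. Cideb read 6.95 in transgenic mouse 165, against 8.63. The brighter Hilpda probe read 12.94 in wild-type mouse 159, against 11.47. Probes of 1 array share its RNA, so the 2 values of mouse 152 are not separate observations.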

How the results depend on the processing

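No member probe passed in any of the 22 planned settings, or without mice 152 and 159, a setting added after seeing the data. The other added setting, the 6 arrays of higher median signal, holds mouse 141 as its only wild-type mouse. For the member probes in that fit only differences are given. Its count of lower calls among all probes, listed below, sets that mouse alone against the transgenic mice. With no spread among wild-type mice, nothing is concluded from that count. The median difference of the 9 member genes, -0.12 as reported, became 0.18 with no normalization between arrays, -0.57 with the epididymal level as a covariate, 0.11 with the median array signal as one and -0.25 with 75th percentile scaling, and it lay between -0.16 and -0.07 when 1 mouse was left out. Among all probes 0 were called higher and 16 lower as reported. Higher calls numbered 1 each with the table called non-normalized, no background correction, offset 50, the trended and robust prior and the adipocyte covariate, 1283 with no normalization between arrays, 170 with array weights and 6 without mice 152 and 159. Lower calls numbered 49 with no normalization between arrays, 9 with no filter, 1 with probes detected on all 9 arrays, 183 with array weights, 1 with the epididymal covariate, 40 without mice 152 and 159 and 39 with the 6 arrays of higher median signal. Leaving out 1 mouse gave 0 to 10 higher and 9 to 40 lower calls, both highest without mouse 152; without mouse 142 there were 34 lower.

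Signs of single members turned above 0. None of these was called in the settings other than the 6 arrays of higher median signal, for which only differences are given. Plin5 here is its brighter probe. With no normalization between arrays Plin2 was 0.13, Plin3 0.36, Plin4 0.0758, Plin5 0.39, Cidec 0.011, Cideb 0.29, Fitm2 0.27 and 0.0982, and Bscl2 0.18. With array weights Plin4 was 0.0011, Plin5 0.15, Cideb 0.22 and Fitm2 0.0346. With the epididymal covariate Cideb was 0.82, and with the adipocyte covariate Plin5 was 0.0463 and Cideb 0.0937. With the median array signal Plin2 was 0.19, Plin4 0.11, Plin5 0.0975, Cidec 0.195, Fitm2 0.18, 0.078 and 0.194, Bscl2 0.15, and Hilpda 0.0255 and 0.0446. With 1 mouse left out Plin2 ran from -0.5526 to 0.0991 (without 159), Plin3 from -0.1034 to 0.0338 (without 147), Plin4 from -0.1477 to 0.0146 (without 152), Plin5 from -0.1713 to 0.1539 (without 159), Cideb from -0.2737 to 0.2669 (without 165) and the brightest Fitm2 probe from -0.1526 to 0.0648 (without 152). The other probes kept their sign: Cidec ran from -0.4624 (without 143) to -0.0859 (without 152), Bscl2 from -0.1941 (without 165) to -0.0147 (without 152), the dimmer Plin5 probe from -0.7366 (without 143) to -0.2896 (without 159), Fitm2 from -0.5745 (without 143) to -0.2324 (without 159) at ILMN_2715170 and from -0.3307 (without 141) to -0.1436 (without 152) at ILMN_2858399, and Hilpda from -0.7717 to -0.2963 and from -0.7677 to -0.1959 (without 143 and 159). Plin5 was also above 0 without 165 (0.0489) and without 152 (0.0343). Without mice 152 and 159 Plin2 was 0.28, Plin4 0.0293, Plin5 0.22, Cidec 0.0288 and Fitm2 0.10. With the 6 arrays of higher median signal, where mouse 141 was the only wild-type mouse, Cideb was 0.20 and Fitm2 0.0183. The cause of these changes was not tested. No paired analysis was possible because the groups share no mouse numbers. Signal near background limits Fitm1, which was not above it on any array. The dimmer Plin5 probe was also near it, at 158 to 243 before normalization against 97 to 133 for Fitm1.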
